A study of Mus musculus with 8 samples.

Results

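The genes described are the subunits of the mitochondrial oxidative phosphorylation machinery, measured in mouse bone marrow cells cultured as macrophages or as osteoclasts. They were chosen by gene symbol (the Nduf subunits A, B, C, S and V; Sdha to Sdhd; Uqcr; Cyc1; Cycs; Cox4 to Cox8; Atp5). Symbols of this kind matched 86 genes, and the 82 whose highest signal reached 4.86, the median of the whole log2 table, were kept. They are 82 of 10871 measured genes: 36 of complex I, 4 of complex II, 9 of complex III, cytochrome c, 15 of complex IV and 17 of complex V. Membership follows the symbol, so Ndufa4, now known as a subunit of complex IV, is counted under complex I. The rule used level, but no difference between groups.

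Oxidative phosphorylation passes electrons from NADH through complex I, or from succinate through complex II, to ubiquinone and on to complex III, cytochrome c and complex IV, where oxygen is reduced. Complexes I, III and IV pump protons out of the matrix, and complex V, the ATP synthase, lets them flow back to make ATP. Osteoclasts are large bone-resorbing cells known for their many mitochondria, and the subunits here are the ones encoded in the nucleus. No symbol looked up for the subunits encoded in mitochondrial DNA was among the measured genes, so they are not described here.

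The cells came from bone marrow of C57BL6/J mice, and each of the 8 groups was 1 array: 4 cultures on days 3 and 6 of treatment. M-CSF cultures received only the macrophage growth factor M-CSF (50 ng/ml); M-CSF+RANKL cultures received it with RANKL (100 ng/ml), the cytokine that turns precursors into osteoclasts. PSS1-WT and PSS1-LMS cultures received both factors and, 1 day later, a retrovirus carrying wild-type or mutant phosphatidylserine synthase 1. The labels give neither the mutation, the species of the insert, the age or number of mice, nor whether the other cultures received an empty vector. With 1 array per group, the tests rest on differences that held on both days, and so few arrays limit how precise any value is.

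On the arrays labelled PSS1-WT and PSS1-LMS, Ptdss1, the gene for that enzyme, read 17.50 to 18.91 (log2 signal), against 9.56 to 10.36 on the other 4 arrays. All 9 osteoclast markers were above background with RANKL, and their summed log2 signal was 21.56 to 21.74 there against 7.36 and 12.61 with M-CSF alone. The 10 macrophage markers on the array summed to 18.81 and 20.54 in M-CSF and to 16.44 to 16.79 with RANKL. Neutrophil markers summed to 14.10 to 14.68 on the 4 day 3 arrays and to 7.32 to 7.63 on the 4 day 6 arrays. Megakaryocyte markers, 3 on the array and 2 of them above background, summed to 14.81 and 15.03 in M-CSF and to 7.20 to 8.18 with RANKL. Their median difference with RANKL was -0.13, so most of these markers did not share the fall of the sum. No B cell, erythroid or stromal marker exceeded background on any array. The part of these markers in the results was not tested, and in bulk RNA fewer cells of a type and less RNA per cell cannot be told apart.

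With RANKL, the transcripts of most of the measured nuclear-encoded subunits were higher. Of the 82 subunit genes, 69 (84.1%) were higher in M-CSF+RANKL than in M-CSF by limma at an adjusted p of 0.05, and 0 were lower; 75 (91.5%) passed at an unadjusted p of 0.05, as 37.4% of all measured genes did. Over all measured genes, 14.1% were higher and 12.4% lower. The median difference of the 82 was 2.16 log2 units, a 4.46-fold higher signal (2.26 on day 3 and 1.93 on day 6), against 0.03 over all measured genes. All 6 arrays with RANKL lay above both M-CSF arrays for 76 of the 82 (92.7%), where 22.2% of all measured genes did so, and below both for 0 (20.8% of all). Fewer calls were made when M-CSF+RANKL was left with 1 array: 36 when its day 3 array was left out and 44 when its day 6 array was, when 6.25% and 6.34% of all genes were called higher. The count was 43 when every signal under 7.13, the brightest background probe set, was raised to that value. In that setting 6.14% of all measured genes were called higher. Of the 69, 64 were above background on all 8 arrays.

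**Figure D1:**
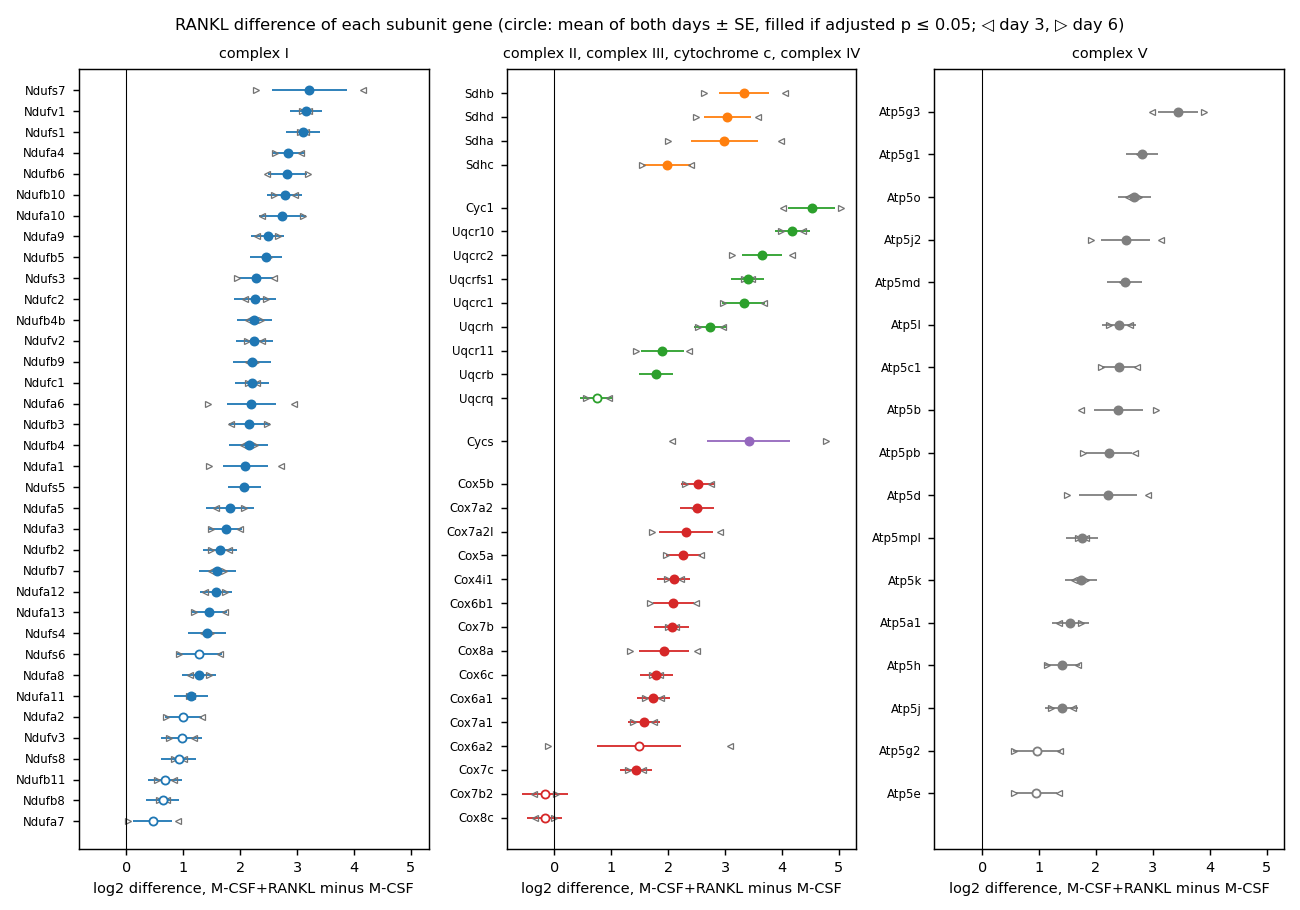
Log2 difference between M-CSF+RANKL and M-CSF for each of the 82 subunit genes by complex (x axis, log2 units; 1 row per gene), with the limma estimate, its standard error and the values of days 3 and 6. Estimates lie right of 0 for 80 genes, and Cyc1 (4.52) and Uqcr10 (4.18) lie farthest right; Cox7b2 and Cox8c lie just left of 0.

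Complex I, the NADH dehydrogenase, had 29 of its 36 measured subunits higher with RANKL, with a median difference of 2.12 (4.35-fold). Those 29 ran from 1.13 (Ndufa11, a membrane-arm accessory subunit) to 3.21 (Ndufs7), and 20 of them were 4-fold higher or more as measured. In what follows, the paired values of a culture are its log2 signals on day 3 and then day 6. Ndufs7, an iron-sulfur subunit that passes electrons towards ubiquinone, read 7.49 and 9.01 in M-CSF, 11.65 and 11.28 in M-CSF+RANKL, 11.50 and 9.93 in PSS1-WT and 11.69 and 10.51 in PSS1-LMS. Every array with RANKL lay above both M-CSF arrays, the closest being PSS1-WT on day 6. The difference of 3.21 ± 0.66 (log2, SE) was 9.27-fold (limma, adjusted p = 0.00957). It was 1.94 without the M-CSF array of day 3 and 4.49 without that of day 6. It did not pass when either M-CSF+RANKL array was left out or when signals were raised to the background. No signal of Ndufs7 was under 7.13, so its difference was unchanged in the latter setting. Ndufv1, the flavin-bearing subunit that takes electrons from NADH, read 10.81 and 10.36 in M-CSF, 14.02 and 13.45 in M-CSF+RANKL, 13.96 and 13.20 in PSS1-WT and 14.16 and 13.45 in PSS1-LMS. The groups were far apart, with a difference of 3.15 ± 0.28 (8.86-fold, limma adjusted p = 0.000171). Ndufs1, which carries iron-sulfur clusters of the NADH-oxidising arm, was 8.6-fold higher.

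The 7 complex I subunits that did not pass spanned dim and bright signals. Ndufa7 read 4.27 and 4.90 in M-CSF, 5.18 and 4.91 in M-CSF+RANKL, 5.10 and 4.77 in PSS1-WT and 5.52 and 5.23 in PSS1-LMS. All 8 values lay within the background of their arrays, so no level could be read, and its difference of 0.46 did not pass (limma, adjusted p = 0.376), though it did without the M-CSF array of day 6. Ndufb8, an accessory subunit of the membrane arm, read 6.97 and 6.59 in M-CSF, 7.69 and 7.16 in M-CSF+RANKL, 7.51 and 7.35 in PSS1-WT and 7.59 and 7.59 in PSS1-LMS; the groups did not overlap, but the difference of 0.64 did not pass (limma, adjusted p = 0.154). The other 5 that did not pass were Ndufs6 (1.28), Ndufv3 (0.97), Ndufs8 (0.92), Ndufb11 (0.68) and Ndufa2, with limma adjusted p from 0.0513 to 0.142. Ndufb10, whose M-CSF signals were within background, was at least 4.18-fold higher with RANKL, where the background of the M-CSF arrays stands in for their signal. For Ndufb7, within background on 1 M-CSF array, the fold was at least 2.85. Of the subunits that did not pass, Ndufb8 was within background on 1 M-CSF array (at least 1.3-fold) and Ndufv3 on both (at least 1.27-fold). Ndufb4 and Ndufb4b are near copies, and whether their probes tell them apart was not tested. Ndufa4, the subunit of complex IV named as one of complex I, read 13.25 and 13.41 in M-CSF, 16.32 and 16.02 in M-CSF+RANKL, 15.72 and 15.82 in PSS1-WT and 15.85 and 16.08 in PSS1-LMS. It was among the subunits that rose, whereas its relative Ndufa4l2 had a highest signal of 3.07 and was not kept.

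Complex II, succinate dehydrogenase, belongs to both the respiratory chain and the citric acid cycle, and all 4 of its subunits rose with RANKL (median difference 3.01, 8.07-fold). Sdhb, the iron-sulfur subunit, read 10.43 and 11.57 in M-CSF, 14.48 and 14.19 in M-CSF+RANKL, 14.18 and 13.60 in PSS1-WT and 13.98 and 13.62 in PSS1-LMS. Its lowest value with RANKL exceeded the higher M-CSF value by about 2 log2 units, and the difference was 3.34 ± 0.44 (10.1-fold, limma adjusted p = 0.00116). Sdhd, a membrane anchor, read 9.40 and 10.29 in M-CSF, 12.98 and 12.78 in M-CSF+RANKL, 12.88 and 12.19 in PSS1-WT and 12.84 and 12.37 in PSS1-LMS, a difference of 3.04 ± 0.41. Sdha, the flavoprotein that oxidises succinate, read 7.81 and 9.50 in M-CSF, 11.80 and 11.49 in M-CSF+RANKL, 11.67 and 10.69 in PSS1-WT and 11.89 and 11.30 in PSS1-LMS, a difference of 2.99 ± 0.59. Sdhc, the other membrane anchor, read 10.60 and 11.20 in M-CSF, 13.01 and 12.75 in M-CSF+RANKL, 13.08 and 11.90 in PSS1-WT and 13.22 and 12.73 in PSS1-LMS; its difference of 1.98 ± 0.42 was the smallest of the 4 (limma, adjusted p = 0.0113). None of the 4 passed with signals raised to the background, where 6.14% of all genes were called higher, against 14.1% as measured. No signal of the 4 was under 7.13, so their differences were the same there. Sdhc and Sdha did not pass when either M-CSF+RANKL array was left out. With 1 array left out, Sdha ran from 1.83 (no M-CSF day 3) to 4.15 (no M-CSF day 6), and Sdhc from 1.35 to 2.60 in the same settings. For all 4 genes the M-CSF signal was higher on day 6 than on day 3.

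Complex III, which hands electrons from ubiquinol to cytochrome c, had 8 of 9 subunits higher, with a median difference of 3.33 (10-fold). As the mean of both days this was the largest median of the multi-subunit complexes, while on day 3 that of complex II was larger (3.79 against 3.47). Cyc1, the cytochrome c1 subunit that docks cytochrome c, read 9.29 and 8.05 in M-CSF, 13.30 and 13.08 in M-CSF+RANKL, 13.05 and 13.59 in PSS1-WT and 12.92 and 12.68 in PSS1-LMS. The M-CSF arrays stood alone at the low end, and the difference of 4.52 ± 0.42 (23-fold, limma adjusted p = 0.000211) was the largest of the 82 as the mean of both days. On day 3 alone Uqcr10 (4.37), Uqcrc2 (4.17), Ndufs7 (4.15) and Sdhb (4.05) exceeded Cyc1 (4.01). Uqcr10, a small accessory subunit, read 8.23 and 8.32 in M-CSF, 12.60 and 12.30 in M-CSF+RANKL, 12.20 and 11.86 in PSS1-WT and 12.37 and 11.71 in PSS1-LMS, a difference of 4.18 ± 0.31 (18.1-fold, limma adjusted p = 6.6e-05). The core proteins Uqcrc2 (3.65) and Uqcrc1 (3.33) and the Rieske iron-sulfur protein Uqcrfs1 (3.40) each differed by 10-fold or more. At the low end, Uqcrb read 16.93 and 16.38 in M-CSF, 18.69 and 18.17 in M-CSF+RANKL, 18.45 and 17.76 in PSS1-WT and 18.36 and 18.32 in PSS1-LMS. Its difference of 1.78 passed, but not when either M-CSF+RANKL array was left out. Uqcrq, a ubiquinone-binding accessory subunit, read 11.07 and 11.40 in M-CSF, 12.03 and 11.95 in M-CSF+RANKL, 11.95 and 12.11 in PSS1-WT and 11.81 and 11.85 in PSS1-LMS. The Uqcrq groups did not overlap, but the difference of 0.75 missed the threshold (limma, adjusted p = 0.0932), though it passed without the M-CSF array of day 6. Uqcr11, within background in M-CSF, was at least 2.28-fold higher.

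Cycs, the soluble cytochrome c that shuttles electrons from complex III to complex IV, read 15.29 and 12.24 in M-CSF, 17.35 and 17.01 in M-CSF+RANKL, 17.07 and 17.15 in PSS1-WT and 16.80 and 17.03 in PSS1-LMS. Its M-CSF values were themselves 3.05 apart, while the 6 arrays with RANKL lay within 1 log2 unit of each other. The difference averaged over both days was 3.42 ± 0.73 (10.7-fold, limma adjusted p = 0.0112), made up of 2.06 on day 3 and 4.77 on day 6. It was 4.94 without the M-CSF array of day 3 and 1.90 without that of day 6. It did not pass when either M-CSF+RANKL array was left out or with signals raised to the background. No signal of Cycs was under 7.13, so its difference was unchanged in the latter setting.

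Complex IV, cytochrome c oxidase, had 12 of 15 subunits higher and a median difference of 1.92 (3.79-fold). The 12 ran from 1.43 (Cox7c) to 2.52 (Cox5b), and 7 were 4-fold higher or more as measured. Cox5b, a zinc-binding regulatory subunit, read 11.31 and 11.33 in M-CSF, 14.06 and 13.63 in M-CSF+RANKL, 13.87 and 13.31 in PSS1-WT and 13.64 and 13.30 in PSS1-LMS and rose by 2.52 ± 0.30 (5.74-fold, limma adjusted p = 0.000654). Cox7a2, the widely expressed form of subunit VIIa, read 10.57 and 10.18 in M-CSF, 13.03 and 12.74 in M-CSF+RANKL, 12.97 and 12.07 in PSS1-WT and 12.64 and 12.18 in PSS1-LMS and rose by 2.51 ± 0.30. For both genes the groups were separated by more than 1 log2 unit. Cox5a, another nuclear-encoded subunit, read 11.72 and 11.90 in M-CSF, 14.29 and 13.87 in M-CSF+RANKL, 14.02 and 13.89 in PSS1-WT and 13.84 and 13.98 in PSS1-LMS, with both M-CSF arrays lowest.

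Several complex IV subunits exist as a widely expressed form and a form restricted to muscle, lung or testis, and the restricted forms were dim here. Cox4i1 read 12.65 and 12.44 in M-CSF, 14.87 and 14.42 in M-CSF+RANKL, 14.53 and 14.58 in PSS1-WT and 14.58 and 14.23 in PSS1-LMS, while Cox4i2, the lung form, had a highest signal of 4.69 and was not kept. Cox6b1 read 12.26 and 12.77 in M-CSF, 14.75 and 14.46 in M-CSF+RANKL, 14.80 and 14.10 in PSS1-WT and 14.70 and 14.30 in PSS1-LMS; the testis form Cox6b2 reached only 4.14. Cox7b read 12.70 and 12.42 in M-CSF, 14.83 and 14.41 in M-CSF+RANKL, 14.47 and 13.98 in PSS1-WT and 14.37 and 14.48 in PSS1-LMS. Its testis form Cox7b2 read 4.17 and 4.04 in M-CSF, 3.82 and 4.07 in M-CSF+RANKL, 5.06 and 3.96 in PSS1-WT and 3.65 and 4.04 in PSS1-LMS, within background on all 8 arrays, and showed no difference that passed (-0.16 ± 0.40, limma adjusted p = 0.81). Cox8a read 13.44 and 14.35 in M-CSF, 15.95 and 15.68 in M-CSF+RANKL, 15.77 and 14.88 in PSS1-WT and 15.93 and 15.50 in PSS1-LMS. Its testis form Cox8c read 5.35 and 5.25 in M-CSF, 5.01 and 5.24 in M-CSF+RANKL, 5.46 and 6.02 in PSS1-WT and 5.05 and 5.58 in PSS1-LMS, within background on 7 arrays, with a difference of -0.17 ± 0.31 (limma, adjusted p = 0.731); the muscle form Cox8b reached only 3.41. These 2 were the only negative estimates of the 82. With all cultures with RANKL set against M-CSF, the Cox8c value turned to 0.10. Around the threshold for being kept, Cox4i2 (4.69) was the closest outside and Cox7b2 (5.06) the closest inside.

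Muscle forms of subunits VIa and VIIa were dim as well, but exceeded background on some or all arrays with RANKL. Cox6a1, the widely expressed form of VIa, read 15.51 and 15.58 in M-CSF, 17.40 and 17.18 in M-CSF+RANKL, 17.17 and 16.83 in PSS1-WT and 17.36 and 16.96 in PSS1-LMS. Cox6a2, its heart and muscle form, read 4.76 and 5.21 in M-CSF, 7.84 and 5.10 in M-CSF+RANKL, 7.25 and 4.82 in PSS1-WT and 8.09 and 5.38 in PSS1-LMS. It was above background only on the 3 day 3 arrays with RANKL, so its averaged difference of 1.49 ± 0.74 did not pass (limma, adjusted p = 0.186). On day 3 its signal was at least 2.92-fold the M-CSF background in M-CSF+RANKL, 1.95-fold in PSS1-WT and 3.49-fold in PSS1-LMS. Cox7a1, the heart and muscle form of VIIa, read 5.89 and 5.74 in M-CSF, 7.64 and 7.13 in M-CSF+RANKL, 7.02 and 6.55 in PSS1-WT and 7.35 and 6.93 in PSS1-LMS. Both M-CSF values were within background, and it rose at least 1.6-fold with RANKL. Cox7a2l, a relative of Cox7a2, read 9.82 and 11.04 in M-CSF, 12.73 and 12.75 in M-CSF+RANKL, 12.78 and 11.88 in PSS1-WT and 12.59 and 12.54 in PSS1-LMS, with every array with RANKL above both M-CSF arrays.

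Complex V had 15 of 17 subunits higher, with a median difference of 2.23 (4.68-fold). The 15 ran from 1.40 (Atp5j, of the peripheral stalk) to 3.44 (Atp5g3), and 10 were 4-fold higher or more as measured. The 15 include Atp5k, whose M-CSF signals of 4.59 and 3.99 lay under the level for being kept and within background, so it was kept only through its arrays with RANKL and no bound above 1-fold can be given. The ring of c subunits that turns with the proton flow is encoded by 3 genes whose mature protein is the same. Atp5g3 read 12.87 and 11.80 in M-CSF, 15.86 and 15.70 in M-CSF+RANKL, 15.47 and 15.23 in PSS1-WT and 15.44 and 15.47 in PSS1-LMS and rose by 3.44 ± 0.35 (10.9-fold, limma adjusted p = 0.000312). Atp5g1 read 14.52 and 14.01 in M-CSF, 17.29 and 16.85 in M-CSF+RANKL, 17.22 and 16.73 in PSS1-WT and 16.95 and 16.78 in PSS1-LMS and rose by 2.80 ± 0.28 (6.97-fold). Atp5g2 read 14.19 and 15.08 in M-CSF, 15.55 and 15.64 in M-CSF+RANKL, 15.64 and 14.89 in PSS1-WT and 15.79 and 15.30 in PSS1-LMS. Here PSS1-WT on day 6 lay below M-CSF on day 6, and the difference of 0.96 ± 0.42 did not pass (limma, adjusted p = 0.141), though it did without the M-CSF array of day 6. Atp5e, the epsilon subunit of the central stalk, read 7.15 and 6.96 in M-CSF and between 7.52 and 8.49 on the 6 arrays with RANKL; within background on 1 M-CSF array, it missed the threshold too (0.95 ± 0.36, limma adjusted p = 0.095). Atp5b, the catalytic beta subunit, read 17.20 and 15.62 in M-CSF, 18.93 and 18.68 in M-CSF+RANKL, 18.73 and 18.82 in PSS1-WT and 18.64 and 18.51 in PSS1-LMS, and its 6 values with RANKL all exceeded both M-CSF values.

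**Figure D2:**
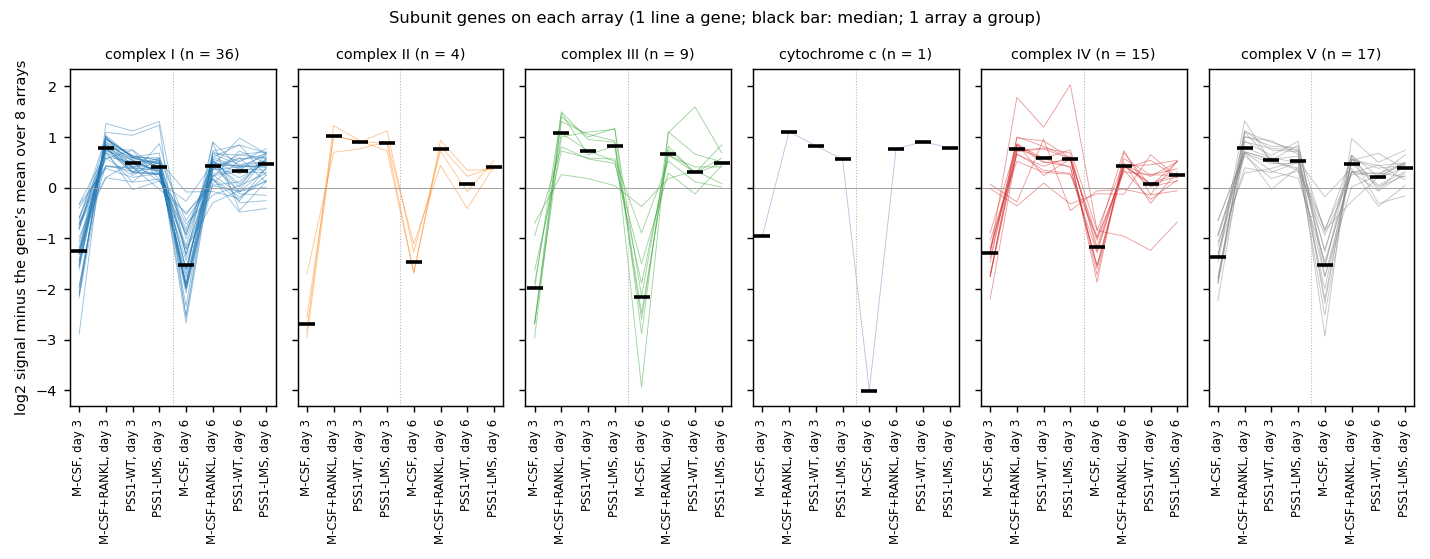
Signal of every subunit gene on each of the 8 arrays (x axis, cultures and days), drawn as the log2 signal minus that gene's mean over the 8 arrays (y axis, log2 units); 1 panel per complex, 1 line per gene, black bars for the median. In each panel the bars of both M-CSF arrays lie under 0 and those of the 6 arrays with RANKL above it; Cycs is lowest on the M-CSF array of day 6 (12.24 as a signal).

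Many genes that serve the same machinery without being among the 82 also rose, in smaller shares where they build the complexes. Of 51 assembly factors, 25 rose and 1 fell, with a median difference of 0.97, or 0.47 with signals raised to the background. Among all measured genes, 14.1% were called higher and 12.4% lower. By complex, 8 of 18 rose for complex I, 1 of 3 for II, 4 of 6 for III, 12 of 20 for IV and 0 of 4 for V. The lists for II and V are too short to be set against the share of all genes. The exception was Dmac1, a complex I assembly factor, which read 13.58 and 14.14 in M-CSF, 12.73 and 12.93 in M-CSF+RANKL, 12.74 and 12.65 in PSS1-WT and 12.67 and 12.64 in PSS1-LMS; it fell by 1.03 (limma, adjusted p = 0.041). The complex I list and its count include Ndufab1, the mitochondrial acyl carrier protein, which rose by 3.02. Ndufab1 is itself also a subunit of complex I, which the symbol rule did not match. The heme A synthase Cox15 (3.19), the farnesyltransferase Cox10 (2.58) and the copper chaperone Cox17 (2.46) rose as well. The differences between these lists and the subunits were not tested.

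Ubiquinone synthesis, which supplies the mobile carrier between complexes I or II and III, had 6 of 12 genes higher and 0 lower (median 1.35, or 0.60 with signals raised to the background). Coq8a, an atypical kinase-like protein needed for ubiquinone synthesis, read 5.59 and 6.76 in M-CSF, 13.34 and 13.43 in M-CSF+RANKL, 13.51 and 13.05 in PSS1-WT and 13.39 and 13.36 in PSS1-LMS. Its M-CSF signal was within background on both days, so only a bound can be given: it was at least 102-fold higher (limma, adjusted p = 2.47e-05). Coq5 (3.06) and Coq7 (2.77), which modify the ubiquinone ring, also rose. All 3 measured carriers that supply complex V rose: the ADP/ATP translocases Slc25a5 (2.48) and Slc25a4 (2.39) and the phosphate carrier Slc25a3 (1.83). Hccs, which attaches heme to cytochrome c, rose by 1.68. The citric acid cycle had 11 of 12 genes higher and 0 lower (median 2.36). Beside these lists, 14.1% of all measured genes were higher and 12.4% lower.

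**Figure D3:**
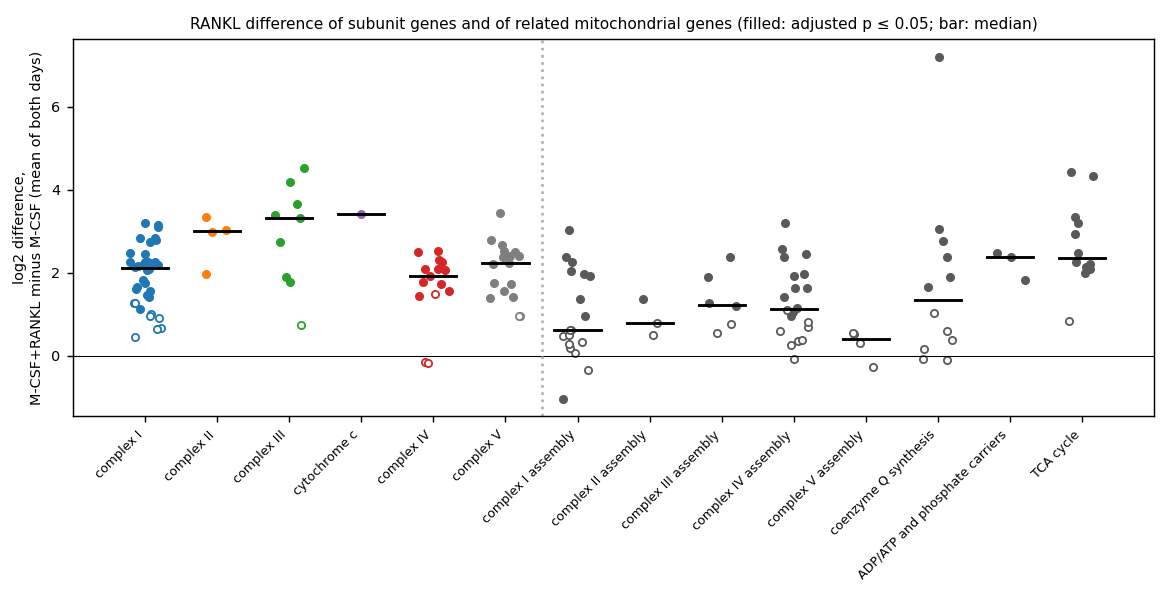
Log2 difference between M-CSF+RANKL and M-CSF (y axis, log2 units, mean of both days) for the subunits of each complex and, right of the dotted line, for related gene lists (x axis); 1 point per gene, filled where the limma adjusted p was at or under 0.05, bars for medians. Complex III (3.33) and complex II (3.01) have the highest bars of the multi-subunit complexes, and the single point at 7.21 as measured is Coq8a, whose M-CSF signals were within background.

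For 13 subunits, the difference between the cultures with RANKL and M-CSF was not the same on both days. The tested value was the mean day change in the 3 cultures with RANKL minus the day change in M-CSF, over all 8 arrays. It thus includes both PSS1 cultures and can depart from the change of M-CSF+RANKL minus M-CSF alone. M-CSF has 1 array a day and was assumed to vary like the cultures with RANKL. For 11 members (13.4%) the difference was smaller on day 6, against 12.8% of all measured genes, and for 2 (2.44%) it was larger, against 9.49%. The share that shrank is thus near the background. Leaving out either M-CSF+RANKL array gives one and the same fit, in which 15 shrank and 5 grew (20 in all; 16.1% and 12.5% of all genes). Trend and robust variance settings also gave 15 and 5 (13.9% and 10.8%). With signals raised to the background, none of the 13 passed, though only Cox6a2 among them had signals under 7.13. The 1 member that did pass was Atp5h, a stalk subunit of complex V (-0.58), where 5.85% of all genes shrank. In all 11 that shrank, the M-CSF signal was higher on day 6 than on day 3, while signals fell in 9 of the 11 in M-CSF+RANKL, 10 in PSS1-WT and 11 in PSS1-LMS.

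Complex II held 3 of the 11. Over the 3 cultures with RANKL, the difference of Sdha from M-CSF shrank by 2.32 log2 units (-2.32 ± 0.42, limma adjusted p = 0.00124). That of Sdhb (-1.55) and Sdhd (-1.35) shrank as well. For M-CSF+RANKL alone, the Sdha difference went from 3.99 on day 3 to 1.99 on day 6. Over the 4 subunits of complex II, the median change from day 3 to day 6 was 1.01 in M-CSF, where all 4 went up. It was -0.27 in M-CSF+RANKL, -0.83 in PSS1-WT and -0.48 in PSS1-LMS, in each of which all 4 went down. In complex I, Ndufs7 (-2.55, limma adjusted p = 0.00144) and Ndufa6 (-1.38) shrank; Ndufa6 did not pass when either PSS1-LMS array was left out (-1.25). Ndufa6, an accessory subunit of the LYR family, read 8.80 and 9.96 in M-CSF, 11.74 and 11.41 in M-CSF+RANKL, 11.25 and 11.41 in PSS1-WT and 11.84 and 11.37 in PSS1-LMS, so that the M-CSF value of day 6 had moved part of the way towards the others. In complex IV, besides Cox6a2, whose value rests on signals within background on 5 arrays, the values were -1.52 for Cox7a2l and -1.44 for Cox8a.

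In complex V, Atp5d, the delta subunit of the central stalk, read 12.89 and 13.92 in M-CSF, 15.81 and 15.41 in M-CSF+RANKL, 15.61 and 14.48 in PSS1-WT and 15.58 and 14.63 in PSS1-LMS, and its RANKL difference shrank (-1.85, limma adjusted p = 0.0061). Atp5j2, a subunit of the membrane part, read 12.85 and 13.81 in M-CSF, 15.98 and 15.72 in M-CSF+RANKL, 15.85 and 15.03 in PSS1-WT and 15.82 and 15.54 in PSS1-LMS and had a change of -1.42; Atp5g2 had one of -1.27 (limma, adjusted p = 0.0474), which did not pass when any PSS1-WT (-1.09) or PSS1-LMS array (-1.22) was left out. Cycs and Atp5b were the members whose difference grew. For Cycs it grew by 3.04 ± 0.42 (limma, adjusted p = 0.000145), with M-CSF going down by 3.05 and the cultures with RANKL changing by -0.34, 0.08 and 0.24. For Atp5b it grew by 1.48 (limma, adjusted p = 0.0158), with M-CSF going from 17.20 to 15.62. Cyc1, at 1.26, missed the threshold (limma, adjusted p = 0.0503).

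**Figure D4:**
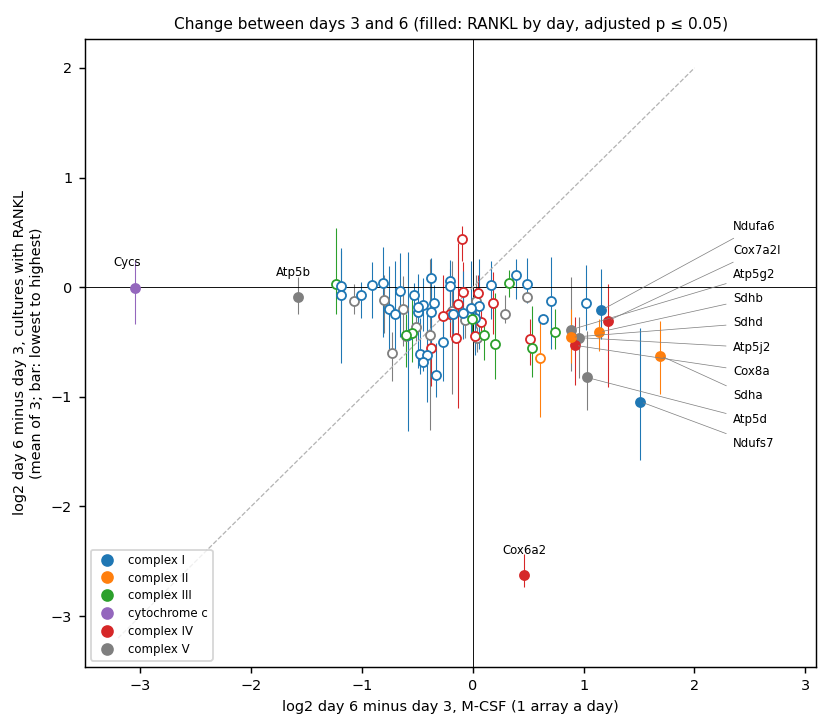
Change of each subunit gene from day 3 to day 6 in M-CSF (x axis, log2 units) against the mean change in the 3 cultures with RANKL (y axis, log2 units; bar, lowest to highest culture), coloured by complex. Cycs lies far left at -3.05, Cox6a2 alone at the bottom, and the other 10 filled genes whose difference shrank lie at the right, where M-CSF went up.

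Between days 3 and 6, over all cultures, 0 of the 82 passed limma's test after adjustment (0.101% of all genes were higher and 0.184% lower on day 6), and 8 (9.76%; 7.94% of all genes) had an unadjusted p under 0.05, all lower on day 6. The median difference was -0.23. The 5 largest over all cultures were Cox6a2 (-1.86), Cycs (-0.77), Ndufs8 (-0.68), Atp5o (-0.63) and Ndufv1 (-0.62). With the 6 arrays with RANKL alone, 4 members were lower on day 6, where 2.07% of all genes were lower and 1.31% higher; leaving out 1 M-CSF array gives the same fit. Cox6a2 fell by 2.73, 2.43 and 2.72 in the 3 cultures (limma over the 6 arrays, -2.63 ± 0.20, adjusted p = 7.33e-07), to signals within background. Ndufs7 (-1.04), Atp5d (-0.83) and Ndufs8 (-0.80), which carries iron-sulfur clusters, were the others. Ndufs8 read 13.01 and 12.68 in M-CSF, 14.02 and 13.51 in M-CSF+RANKL, 13.74 and 12.85 in PSS1-WT and 13.92 and 12.92 in PSS1-LMS; its fall was smallest in M-CSF+RANKL among the cultures with RANKL. Day 6 lay below day 3 in all 3 cultures with RANKL for 36 of the 82 (43.9%), against 22.2% of all measured genes. In M-CSF it did so for 48 (58.5%; 49.9% of all genes). The neutrophil markers moved with the day as well (14.16 to 14.68 on day 3 and 7.32 to 7.63 on day 6 with RANKL), and their part was not tested.

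The PSS1 cultures asked whether wild-type or mutant phosphatidylserine synthase changes transcripts during RANKL treatment. For the subunit genes the differences were small, and none passed. By limma, 0 of 82 were called in PSS1-WT against M-CSF+RANKL (0.0092% of all genes higher, 0% lower), in PSS1-LMS against M-CSF+RANKL (0.156% higher, 0.0184% lower) or in PSS1-LMS against PSS1-WT (0% either way). At an unadjusted p of 0.05 the counts were 6, 2 and 1 (7.32%, 2.44% and 1.22%), where 6.86%, 6.57% and 7.11% of all genes passed. The median difference from M-CSF+RANKL was -0.27 in PSS1-WT, with 72 of 82 negative, and -0.18 in PSS1-LMS, with 68 negative; over all genes the medians were -0.06 and -0.02. By day the members' median was -0.27 and -0.22 (days 3 and 6) in PSS1-WT and -0.32 and -0.06 in PSS1-LMS, where 70 and then 49 were negative. With 1 array left out or another setting, the PSS1-LMS median ran from -0.30 to -0.05. For the 1463 other genes that rose with RANKL the medians were -0.21 and -0.21. All these values share the same M-CSF+RANKL arrays. PSS1-WT lay below M-CSF+RANKL on both days for 48 members (58.5%; 32.2% of all genes), PSS1-LMS for 42 (51.2%; 27.6%), and both for 28 (34.1%; 14.4%).

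The 5 largest PSS1-WT differences were those of Ndufs7 (-0.75 ± 0.29; -0.15 on day 3 and -1.35 on day 6), Uqcrfs1 (-0.64), Cox8c (0.61, mostly within background), Cox7a1 (-0.60) and Ndufa2 (-0.60); the limma adjusted p was 0.679 for Ndufs7. Uqcrfs1 read 8.91 and 8.31 in M-CSF, 12.37 and 11.65 in M-CSF+RANKL, 11.55 and 11.20 in PSS1-WT and 11.72 and 11.48 in PSS1-LMS, lower in PSS1-WT than in M-CSF+RANKL on both days. For PSS1-LMS they were Ndufb7 (-0.61), Sdhb (-0.54), Atp5d (-0.50), Cox7a2 (-0.47) and Ndufa9 (-0.44), with an adjusted p of 0.719 for Ndufb7 (limma). Between the mutant and the wild type the median was 0.07 (-0.08 without the PSS1-LMS array of day 6), and the 5 largest were Cox6a2 (0.70), Cox7b2 (-0.66), Cyc1 (-0.52), Sdhc (0.48) and Ndufa7 (0.44), of which Cox7b2 and Ndufa7 were within background on all arrays. The 95% interval of the difference lay within 2-fold either way for 70 of 82 members in PSS1-WT, 78 in PSS1-LMS and 76 between them. The lowest bound was -1.36, for Ndufs7 in PSS1-WT, so a fall of that size there is not shown to be absent. Against M-CSF, the median over the members was 2.26 and 1.93 (days 3 and 6) in M-CSF+RANKL, 1.88 and 1.56 in PSS1-WT, and 1.80 and 1.87 in PSS1-LMS.

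**Figure D5:**
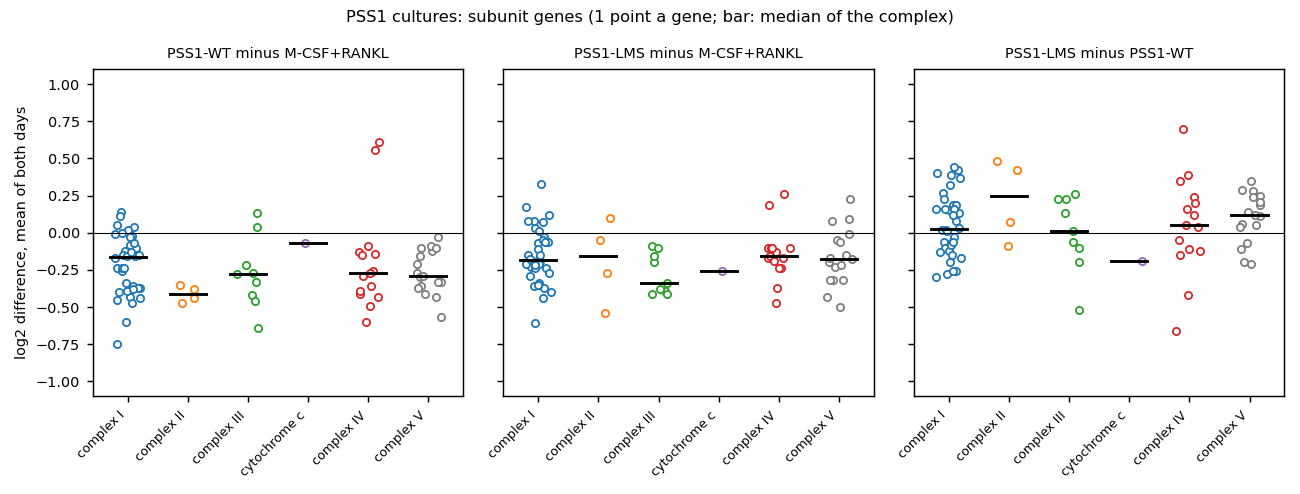
Log2 difference of each subunit gene, mean of both days (y axis, log2 units), by complex (x axis), in 3 panels: the wild-type and then the mutant culture against M-CSF+RANKL, and the mutant against the wild type; 1 point per gene, bars for medians. Points lie mostly under 0 in the panels against M-CSF+RANKL (72 and 68 of 82), and all points are open since none passed the test.

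Because members rose in all 5 complexes, their promoters were searched for short motifs of factors known from background to act on respiratory genes. The 250 bases before the start were available from RefSeq (GRCm38.p6) for 68 of the 82 genes, and exact matches were counted on both strands. The NRF1 letters, GCGCA and GCGC with any 1 base between them, were in 13, or 19.1% of members, against 9.61% of measured genes with a promoter and 4.23% of all genes. CCGGAAG (GABP) was in 12 (17.6%, 16% and 7.83%). TGACGTCA (CRE) was in 5 (7.35%, 3.03% and 1.77%). AAGATGGCG (YY1) and TCAAGGTCA (ERR) were in 1 member each (1.47%; 1.38% and 0.315% of measured genes, 0.71% and 0.422% of all). In all, 27 members held at least 1 motif. A match is a description of the letters and not a bound site, and no binding was measured. For each motif, the holder with the largest RANKL difference is printed 5′ to 3′ on the strand of its gene, with matches in capitals on either strand. Sdhd, at chr9:50603850-50604099 (minus strand), holds the NRF1 letters 79 to 70 bases before the start and the reverse complement of the GABP letters at 46 to 40. Atp5j, a stalk subunit of complex V, is shown for the second of 2 starts, chr16:84834977-84835226 (minus strand), with YY1 at 88 to 80 and GABP at 61 to 55. Atp5g3, at chr2:73911327-73911576 (minus strand), holds the reverse complement of the ERR letters at 52 to 44, and Cycs, at chr6:50566570-50566819 (minus strand), holds CRE at 169 to 162.
Sdhd: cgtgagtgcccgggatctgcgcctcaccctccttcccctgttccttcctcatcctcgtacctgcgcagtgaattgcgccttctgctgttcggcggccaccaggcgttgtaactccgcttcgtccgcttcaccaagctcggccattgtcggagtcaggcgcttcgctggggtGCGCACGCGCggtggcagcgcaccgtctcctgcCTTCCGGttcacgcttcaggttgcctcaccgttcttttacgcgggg
Atp5j: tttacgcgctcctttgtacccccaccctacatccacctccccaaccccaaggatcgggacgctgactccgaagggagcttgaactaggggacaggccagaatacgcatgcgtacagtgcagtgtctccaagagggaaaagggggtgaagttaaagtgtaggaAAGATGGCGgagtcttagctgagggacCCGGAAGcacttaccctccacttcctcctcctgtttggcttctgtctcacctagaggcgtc
Atp5g3: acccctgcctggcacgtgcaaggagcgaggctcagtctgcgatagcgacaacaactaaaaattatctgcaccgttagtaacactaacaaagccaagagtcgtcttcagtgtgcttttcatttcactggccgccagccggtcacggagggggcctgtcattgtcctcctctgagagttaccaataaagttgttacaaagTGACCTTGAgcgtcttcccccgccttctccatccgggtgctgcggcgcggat
Cycs: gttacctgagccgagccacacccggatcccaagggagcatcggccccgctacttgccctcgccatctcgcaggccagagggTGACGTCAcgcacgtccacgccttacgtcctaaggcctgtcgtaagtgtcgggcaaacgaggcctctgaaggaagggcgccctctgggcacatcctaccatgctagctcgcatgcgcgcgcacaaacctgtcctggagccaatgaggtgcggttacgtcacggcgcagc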

How the data were processed

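The 8 arrays were 1 per group. The deposited table gives a log2 signal for 28846 features; its scale was inferred from its range, and the sources used here do not say how the authors normalised it. The label protocol starts from 500 ng of total RNA. Values were used as deposited, with array medians of 4.80 to 4.93. The brightest of 23 background probe sets read 5.54 to 7.13, depending on the array, and a signal at or under that of its own array is called within background.

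Of genes with several transcript clusters, the one with the highest mean was taken (19505 genes). The 10871 genes whose highest value reached 4.86 were tested with limma 3.58.1 in R 4.3.3 in a model of culture plus day. RANKL and day were tested on 8 arrays (3 residual degrees of freedom), PSS1 on the 6 with RANKL (2), and RANKL by day as an interaction (2). Each gene's variance was pooled with that of all genes, with 4.71 prior degrees of freedom in the first model and 13.3 in the others. Benjamini-Hochberg adjustment covered all 10871 genes, with 0.05 as threshold, and the fits were tested on simulated data. P-values measure only how far differences changed between days or cultures and cover no spread over mice or repeated cultures.

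The members and lists were chosen with earlier results of these data known. By rule, array values are given for the 2 largest and the 2 smallest RANKL differences of each complex, for members that passed another comparison and for sets of isoforms; the 5 largest members are given for the other comparisons. A few further subunits were named after their values were seen. Alternatives changed the scaling, the filter, the choice of cluster, the background floor, the variance model and the arrays used.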

Additional observations from a re-analysis of the deposited data

Results flagged for a closer look

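For 13 subunits limma's test called a change between days 3 and 6 (adjusted p at or under 0.05, all 8 arrays). What changed was the difference between the mean of the 3 cultures with RANKL and M-CSF. It shrank for Cox6a2 (-3.08), Ndufs7 (-2.55), Sdha (-2.32), Atp5d (-1.85), Sdhb (-1.55), Cox7a2l (-1.52), Cox8a (-1.44), Atp5j2 (-1.42), Ndufa6 (-1.38), Sdhd (-1.35) and Atp5g2 (-1.27), in log2 units. It grew for Cycs (3.04) and Atp5b (1.48). Of all measured genes, 12.8% shrank and 9.49% grew by the same test. Each value rests on 1 M-CSF array per day. That of Cox6a2 is as measured: its signals were within background on 5 of the 8 arrays, and it was -0.60 and did not pass with signals raised to the background.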

How the results depend on the processing

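The 69 members called higher with RANKL were 43 with signals raised to the background and 36 to 77 when 1 array was left out (lowest without M-CSF+RANKL day 3, then 44 without M-CSF+RANKL day 6); 0 were called lower in any of these. The median RANKL difference stayed between 1.91 and 2.24. With signals raised to the background, 6.14% of all measured genes were called higher, against 14.1% as measured. The day effect gave 4 members with the 6 RANKL arrays only and 0 to 4 with 1 array left out (4 without either M-CSF array, which is the same fit). RANKL by day gave 1 with the background floor, 20 with trend and robust settings and 12 to 20 with 1 array left out; leaving out an M-CSF array could not be fitted. No alternative called a member in a PSS1 comparison. Among the members and medians recomputed, the sign turned for the median of PSS1-LMS against PSS1-WT (-0.08 to 0.16) and for members within background on nearly all arrays: Cox8c to 0.10 with all RANKL cultures against M-CSF and from -0.44 to 0.10 with 1 array left out (0.10 without M-CSF day 3), Cox7b2 from -0.43 to 0.10 (0.10 without M-CSF+RANKL day 3), and Cox7b2 in PSS1-LMS against PSS1-WT from -1.37 to 0.05 (0.05 without PSS1-WT day 3). The cause of these shifts was not tested. The labels give no replicate numbers to pair by; the model compares cultures within days. Of the 82 members, 12 were within background on at least 1 array, which limits their folds.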

Other observations

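Among genes that supply the respiratory chain from outside it, the mitochondrial ribosomal proteins, which translate the subunits encoded in mitochondrial DNA, had 47 of 74 members higher with RANKL and 0 lower (limma, median difference 1.33). The cytosolic ribosomal proteins, which translate the subunits described above, had 3 of 64 higher and 0 lower (median 0.54). By the same RANKL test, 14.1% of all measured genes were higher and 12.4% lower. For the mitochondrial ribosomal proteins, the difference between the 3 cultures with RANKL and M-CSF changed by a median of 0.40 from day 3 to day 6. That median was 0.09 with signals raised to the background. By limma's test the difference was larger on day 6 for 4 (5.41%) and smaller for 2 (2.7%), against 9.49% and 12.8% of all measured genes. That median of 0.40 stands beside a median of -0.15 for the 82 subunits and -0.03 for all measured genes. The difference between these lists was not tested.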
